A study of Mus musculus with 16 samples.

Results

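Pramel14, Pramel30, Nlrp4f, Nlrp4a and Sohlh2 are 5 genes of families best known from the oocyte: a pair of PRAME-family genes, a pair of Nlrp4 genes and an oocyte and spermatogonial transcription factor. They were taken by current symbol from 30102 genes with a value, each from its single probe set. The array annotation carries older symbols for the PRAME-family pair, Pramef17 for Pramel14 and Gm13128 for Pramel30. These genes were chosen with earlier results from the same arrays known, so their own levels and differences are described here with their errors and without p-values.

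RNA came from male 129SV mouse embryonic stem cells (ESCs) and was hybridized to 16 Affymetrix arrays, 1 array for each of 8 lines in each of 2 conditions. Of these, 7 lines were made from the parental line EBRTcH3 by removing all MBD3 isoforms and then stably adding a vector. MBD3 belongs to NuRD, a chromatin complex that joins nucleosome remodelling with histone deacetylation. The 3 lines lacking a coiled coil carried the empty vector (no MBD3), MBD3a with the coiled coil removed (coiled-coil-deleted) or MBD3a with its methyl-CpG-binding domain removed as well (doubly deleted). The 5 lines retaining a coiled coil carried MBD3a without the methyl-CpG-binding domain (MBD-deleted), full-length MBD3a, MBD3b or MBD3c, or were EBRTcH3 itself, with its own Mbd3 genes. Each line was sampled after 12 days without leukaemia inhibitory factor (LIF) and in medium with LIF, the cytokine that supports self-renewal. Each line was measured on a single array per condition, and nothing says how many clones or cultures stand behind it, so lines serve as replicates of a class, and a p-value reflects how far these particular lines spread. A level is the log2 signal of a probe set, normalized by the authors with RMA, which can be compared between arrays but not between genes.

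The PRAME family is a group of leucine-rich-repeat proteins that has expanded greatly in rodents, and many of its mouse members are transcribed in oocytes, testis or the early embryo. Nlrp4 genes belong to the NOD-like receptor family, of which a reproductive branch, duplicated in the mouse, is transcribed mainly in oocytes and supplies maternal proteins to the embryo. Sohlh2 encodes a basic helix-loop-helix factor that acts with Sohlh1 in young oocytes and in spermatogonia to drive germ cell differentiation.

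Mbd3 itself, which checks the labels, was at 7.45 log2 in empty vector cells, 9.02 in coiled-coil-deleted cells and 8.45 in doubly deleted cells without LIF, against 8.56 to 9.59 in the retaining lines; with LIF it was at 7.00, 9.12 and 8.48 in the same 3 lines, against 8.65 to 9.15. A gene passed a comparison at a limma p, adjusted by Benjamini-Hochberg over all tested genes, under 0.05. The class difference of Mbd3 did not pass (adjusted p = 0.208 without LIF and 0.177 with LIF); with LIF it passed when coiled-coil-deleted was left out (-1.25 log2). Array medians lay between 4.72 and 4.85. All 10 ESC markers examined, among them Pou5f1, Sox2 and Nanog, were above the array's 40th percentile on all 16 arrays. Their mean level was 10.83 to 10.99 in the lacking and 10.29 to 10.77 in the retaining lines without LIF, and 11.28 to 11.41 and 11.23 to 11.52 with LIF. Without LIF, Sox2, Zfp42, Esrrb, Klf4, Tfcp2l1 and Dppa5a were higher and Lin28a lower in every lacking line than in every retaining line. With LIF only Dppa5a separated the classes, and it was higher in the lacking lines. What part these differences had in the levels below was not tested. The arrays measure bulk RNA, so more cells transcribing a gene and more RNA per cell cannot be told apart.

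In the lines lacking a coiled coil, Pramel14, Pramel30, Nlrp4f and Sohlh2 lay far above the lines retaining it, by 10.7 to 14.2-fold without LIF and by 5.51 to 11.0-fold with LIF. Nlrp4a did not share this pattern: its classes overlapped in both conditions. In each condition 4 of 5 genes had every lacking line above every retaining line. Among all 22872 genes tested, 11.9% did so without LIF and 11.8% with LIF, and 0.109% were at least 4-fold higher in each. Since the genes were chosen with these differences known, nothing is read from that contrast. All 5 passed the filter on low signal, a level above the array's 40th percentile on at least 3 arrays. Sohlh2, Pramel14, Pramel30 and Nlrp4f were above the array's 40th percentile on all 16 arrays, and Nlrp4a on 14.

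Markers of other cell types also differed between the classes, and their part in these levels was not tested. The mean of 7 trophoblast markers was 7.93 to 8.13 log2 in the lacking and 8.21 to 9.55 in the retaining lines without LIF, and 7.14 to 7.53 and 6.44 to 6.93 with LIF. Among them Cdx2, Krt8 and Krt18 were lower and Eomes and Elf5 higher in every lacking line without LIF, and Eomes, Hand1, Krt8 and Krt18 were higher with LIF. The mean of 8 fibroblast markers was 5.38 to 5.44 in the lacking and 5.38 to 5.86 in the retaining lines without LIF, and 5.37 to 5.66 and 5.09 to 5.27 with LIF. Of these Thy1 was higher in every lacking line in both conditions, and Col1a1, Col3a1, Dcn and Postn were lower without LIF. Lum and Postn had signals too low to be tested. The mean of 6 primitive endoderm markers was 5.94 to 6.01 in the lacking and 6.18 to 6.68 in the retaining lines without LIF, and 5.87 to 6.05 and 5.79 to 5.96 with LIF. Here Gata4 was lower in every lacking line in both conditions, and Dab2 was higher with LIF.

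**Figure D1:**
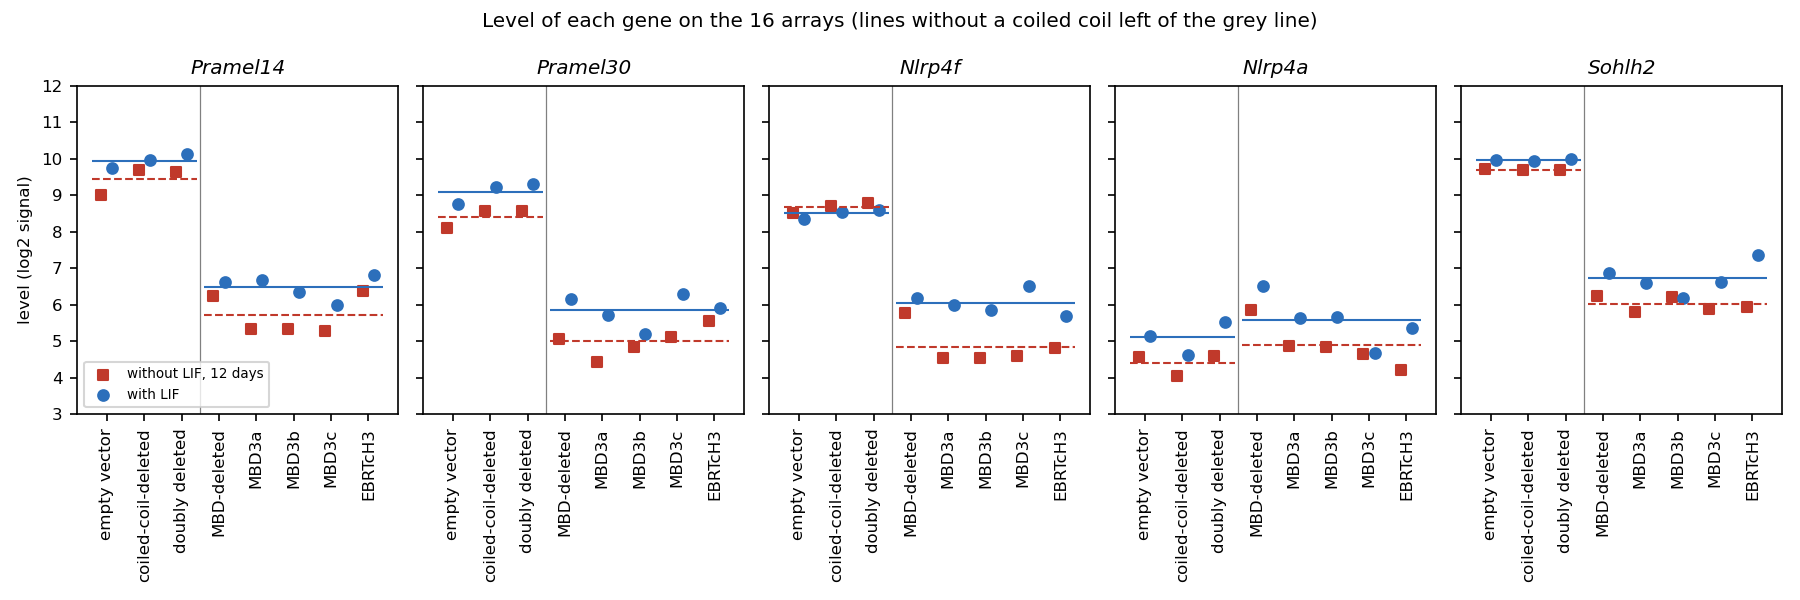
Level of the 5 genes (log2 signal, vertical axis) on each array, with lines lacking a coiled coil left of the grey line and lines retaining it right of it; red squares are arrays without LIF, blue circles arrays with LIF, and horizontal bars are class means (dashed without LIF, solid with LIF). Sohlh2, Pramel14, Pramel30 and Nlrp4f stand in separate ranges in the 2 classes, whereas the ranges of Nlrp4a overlap; levels are not comparable between panels.

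Pramel14 without LIF was at 9.00 log2 in empty vector cells, 9.70 in coiled-coil-deleted cells and 9.65 in doubly deleted cells, against 6.23 in MBD-deleted, 5.33 with MBD3a, 5.32 with MBD3b, 5.29 with MBD3c and 6.38 in EBRTcH3. With LIF the same lacking lines were at 9.74, 9.97 and 10.14, against 6.63, 6.67, 6.35, 5.98 and 6.81 in the same retaining lines. The lacking lines were high on all their arrays, with 2.62 log2 without LIF and 2.93 with LIF between their lowest and the highest retaining line. Class means without LIF were 9.45 ± 0.39 log2 (SD, n = 3) in the lacking and 5.71 ± 0.55 (SD, n = 5) in the retaining lines, a difference of 3.74 ± 0.29 log2 (SE) or 13.4-fold. With LIF they were 9.95 ± 0.20 in the lacking and 6.49 ± 0.33 in the retaining lines, a difference of 3.46 ± 0.18 log2 (SE) or 11.0-fold. EBRTcH3 was the highest retaining line in both conditions.

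Pramel30 followed the same order of classes. Without LIF its level was 8.10 in empty vector cells, 8.58 in coiled-coil-deleted cells and 8.57 in doubly deleted cells, against 5.05 in MBD-deleted, 4.43 with MBD3a, 4.84 with MBD3b, 5.12 with MBD3c and 5.55 in EBRTcH3. With LIF it was 8.76, 9.23 and 9.32, against 6.16, 5.73, 5.19, 6.28 and 5.92. No retaining line came within 2.55 log2 of the lacking lines without LIF or within 2.48 log2 with LIF. The class difference was 3.42 ± 0.22 log2 (SE, 10.7-fold) without LIF and 3.25 ± 0.23 (SE, 9.50-fold) with LIF. In both conditions the empty vector line was the lowest of the 3 lacking lines for Pramel30, as it was for Pramel14. The Pramel30 level with MBD3a without LIF, 4.43, lay close to the array's 40th percentile, 4.24 to 4.38.

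The promoters of this pair are shown because they are close to identical, and with them that of Pramel7, the PRAME-family gene with the next closest promoter. Each runs 250 bases before to 50 bases after the annotated start (RefSeq, GRCm38.p6), 5′ to 3′ on the gene's strand: Pramel14 at chr4:143994320-143994619 (minus strand), Pramel30 at chr4:144329999-144330298 (plus strand) and Pramel7 at chr2:87492369-87492668 (minus strand). Capitals in Pramel30 and Pramel7 mark bases that are not identical to Pramel14 in a global alignment.
Pramel14: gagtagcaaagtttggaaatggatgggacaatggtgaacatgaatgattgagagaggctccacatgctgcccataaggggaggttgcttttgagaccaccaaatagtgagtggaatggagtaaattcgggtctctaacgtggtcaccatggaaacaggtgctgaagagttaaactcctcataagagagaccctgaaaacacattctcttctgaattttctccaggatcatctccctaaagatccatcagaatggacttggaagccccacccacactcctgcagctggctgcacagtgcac
Pramel30: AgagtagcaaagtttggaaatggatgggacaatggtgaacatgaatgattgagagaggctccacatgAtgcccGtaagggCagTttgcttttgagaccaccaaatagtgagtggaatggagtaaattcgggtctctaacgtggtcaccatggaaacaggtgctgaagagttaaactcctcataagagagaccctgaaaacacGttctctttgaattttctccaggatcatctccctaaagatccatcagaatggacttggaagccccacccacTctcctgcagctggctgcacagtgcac
Pramel7: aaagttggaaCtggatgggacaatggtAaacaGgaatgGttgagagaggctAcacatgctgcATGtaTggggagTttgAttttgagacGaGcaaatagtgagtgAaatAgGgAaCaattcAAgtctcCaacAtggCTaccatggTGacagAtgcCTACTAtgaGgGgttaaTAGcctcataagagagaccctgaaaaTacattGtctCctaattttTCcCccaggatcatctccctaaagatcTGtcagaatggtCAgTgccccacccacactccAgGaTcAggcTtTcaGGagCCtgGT

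Pramel30 was identical to Pramel14 at 293 of 301 aligned positions (97.3%), and Pramel7 at 239 of 313 (76.4%). The promoters of 40 other PRAME-family genes were 46.1% to 59.2% identical to that of Pramel14. Because Pramel14 and Pramel30 are close paralogues and the sources used here do not give the sequences their probe sets cover, their signals may share targets and are not independent measurements.

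**Figure D2:**
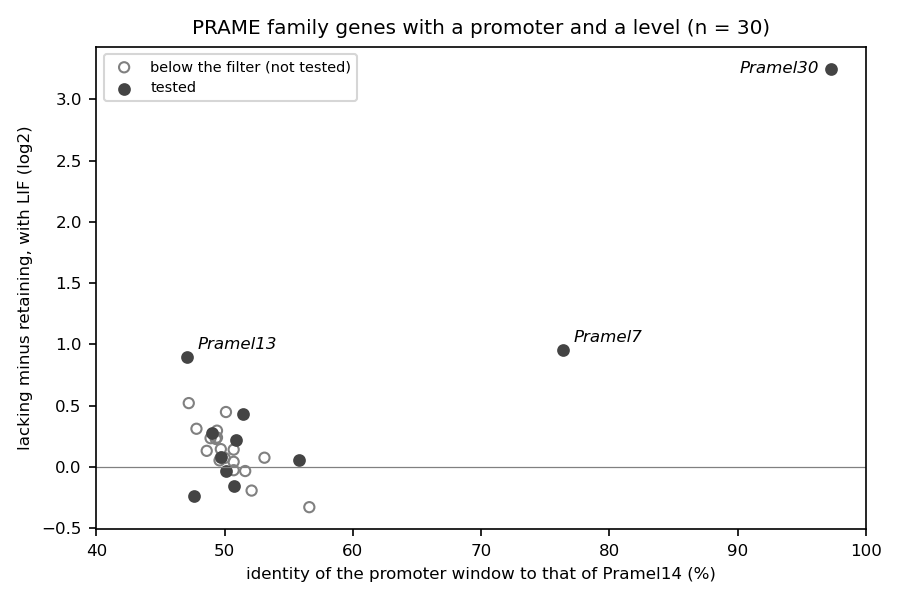
Identity of each PRAME-family promoter window to that of Pramel14 (percent, horizontal axis) and the gene's difference in level between lacking and retaining lines with LIF (log2, vertical axis) for the 30 genes with both, 11 of them tested (filled points). Pramel30 lies at 97.3% and 3.25 log2, Pramel7 at 76.4% and 0.95 log2, and all others lie below 60% identity. The other tested genes lie at -0.24 to 0.90 log2, with Pramel13 highest at 47.1% identity. Pramel30 was itself chosen with its level known.

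Pramel7, which in mouse ESCs and the inner cell mass acts in keeping DNA methylation low, passed in both class comparisons. Without LIF it was at 4.17 log2 in empty vector cells, 4.65 in coiled-coil-deleted cells and 4.46 in doubly deleted cells, against 2.97, 3.47, 2.96, 3.15 and 3.30 in MBD-deleted, MBD3a, MBD3b, MBD3c and EBRTcH3. With LIF it was at 3.69, 4.83 and 3.93, against 3.35, 2.97, 3.10, 3.28 and 3.29. The difference was 1.26 ± 0.14 log2 (SE, limma adjusted p = 0.00028) without LIF and 0.95 ± 0.22 (adjusted p = 0.0139) with LIF. Its signal was low: it passed the filter through 3 arrays, all of lacking lines, so the filter itself favoured a difference in this direction, and the call with LIF was lost with the numbering run of the sample titles as a covariate (0.76).

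Nlrp4f, whose product associates with the subcortical maternal complex of the mouse oocyte and early embryo, was likewise higher in the lacking lines. Its level without LIF was 8.52 in empty vector cells, 8.72 in coiled-coil-deleted cells and 8.80 in doubly deleted cells, against 5.77 in MBD-deleted, 4.54 with MBD3a, 4.55 with MBD3b, 4.59 with MBD3c and 4.80 in EBRTcH3. With LIF the lacking lines were at 8.36, 8.54 and 8.61, against 6.17, 5.98, 5.86, 6.51 and 5.68. The classes stayed apart in both conditions, and MBD-deleted stood alone above the other retaining lines without LIF. The class difference was 3.83 ± 0.26 log2 (SE, 14.2-fold) without LIF and 2.46 ± 0.17 (SE, 5.51-fold) with LIF. The lacking mean was 8.68 ± 0.14 log2 (SD) without LIF and 8.50 ± 0.13 with LIF, and the retaining mean 4.85 ± 0.53 and 6.04 ± 0.32. Without LIF the levels with MBD3a, MBD3b and MBD3c and in EBRTcH3 lay close to the array's 40th percentile, 4.24 to 4.38. There a signal carries little information on change. The size of the fold without LIF, and of the response to LIF withdrawal in these lines, is therefore uncertain.

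Nlrp4a, a paralogue of Nlrp4f on another chromosome (7, against 13), showed no such separation. Without LIF it was at 4.57 in empty vector cells, 4.05 in coiled-coil-deleted cells and 4.60 in doubly deleted cells, against 5.86 in MBD-deleted, 4.88 with MBD3a, 4.85 with MBD3b, 4.65 with MBD3c and 4.20 in EBRTcH3. With LIF it was at 5.15, 4.62 and 5.53, against 6.51, 5.64, 5.66, 4.67 and 5.36. The classes overlapped in both conditions, and the lacking mean was lower by 0.48 ± 0.31 log2 (SE) without LIF and by 0.47 ± 0.33 with LIF, a difference inside the spread between lines. MBD-deleted had the highest Nlrp4a level in both conditions, 0.98 log2 above MBD3a without LIF and 0.87 above it with LIF. Several of these levels lie close to the array's 40th percentile, 4.24 to 4.38, where the signal carries little information on change.

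The starts of the Nlrp4 pair are shown because they share one stretch, placed differently relative to the annotated start. Nlrp4f lies at chr13:65205667-65205966 (minus strand) and the downstream one of the 2 Nlrp4a promoters at chr7:26435364-26435663 (plus strand), GRCm38.p6, with the best local alignment of the pair in capitals.
Nlrp4f: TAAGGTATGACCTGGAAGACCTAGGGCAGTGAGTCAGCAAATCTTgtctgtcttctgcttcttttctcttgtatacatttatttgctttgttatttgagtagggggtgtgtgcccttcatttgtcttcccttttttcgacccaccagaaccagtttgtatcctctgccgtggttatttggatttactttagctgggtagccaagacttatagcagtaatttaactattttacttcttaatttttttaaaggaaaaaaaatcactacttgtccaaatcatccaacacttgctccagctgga
Nlrp4a: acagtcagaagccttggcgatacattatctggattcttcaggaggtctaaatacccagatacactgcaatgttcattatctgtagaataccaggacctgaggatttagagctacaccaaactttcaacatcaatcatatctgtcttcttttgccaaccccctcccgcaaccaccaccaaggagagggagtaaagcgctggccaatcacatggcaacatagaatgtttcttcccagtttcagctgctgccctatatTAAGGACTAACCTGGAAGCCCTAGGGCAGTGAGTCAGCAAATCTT

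The stretch is identical at 41 of 45 positions (91.1%) and covers positions -250 to -206 relative to the annotated start of Nlrp4f, but positions 6 to 50 in Nlrp4a, after its start. Similar alignments to Nlrp4f were found in Nlrp4b (70 of 84 positions, 83.3%), whose signal was too low to be tested.

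Sohlh2 had the tightest levels within the lacking class. Without LIF it was at 9.71 in empty vector cells, 9.69 in coiled-coil-deleted cells and 9.69 in doubly deleted cells, against 6.24 in MBD-deleted, 5.79 with MBD3a, 6.20 with MBD3b, 5.87 with MBD3c and 5.95 in EBRTcH3. With LIF it was at 9.98, 9.95 and 9.99, against 6.86, 6.59, 6.19, 6.63 and 7.36. The lowest lacking line lay 3.45 log2 above the highest retaining line without LIF and 2.59 above it with LIF, where EBRTcH3 was the highest retaining line. The difference was 3.69 ± 0.11 log2 (SE, 12.9-fold) without LIF and 3.25 ± 0.21 (SE, 9.50-fold) with LIF. The lacking lines had an SD of 0.01 log2 without LIF and 0.02 with LIF, against 0.20 and 0.43 in the retaining lines.

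The Sohlh2 promoter is shown for its CpG content, which sets it apart from the other genes here. It lies at chr3:55181794-55182093 (plus strand, GRCm38.p6), with CpG dinucleotides in capitals.
Sohlh2: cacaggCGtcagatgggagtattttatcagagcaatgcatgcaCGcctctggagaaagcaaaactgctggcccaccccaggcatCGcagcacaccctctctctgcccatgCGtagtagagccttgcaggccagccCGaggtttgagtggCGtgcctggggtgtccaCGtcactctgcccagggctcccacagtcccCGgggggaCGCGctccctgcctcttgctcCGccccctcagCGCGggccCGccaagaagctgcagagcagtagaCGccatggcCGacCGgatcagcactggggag

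Sohlh2 held 17 CpG, a count reached by 31.4% of 32851 mouse promoter windows of the same length, whose median was 7. There were 2 CpG in Pramel14, 4 in Pramel30, 2 in Nlrp4f, and 5 and 3 in the upstream and downstream Nlrp4a promoters. The motif CANNTG, the letters that basic helix-loop-helix factors such as SOHLH2 read (a palindrome, the same on both strands), occurred 3 times each in Pramel14, Pramel30 and Nlrp4f, 2 times in each Nlrp4a promoter and 1 time in Sohlh2; 72.3% of all windows held at least 1. The palindrome CACGTG, which is a case of CANNTG, occurred in none of these windows and in 7.2% of all. TCCCGC, searched on both strands, occurred 1 time in the downstream Nlrp4a promoter and in none of the other windows, against 20.0% of all. These counts describe letters in a window only.

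Single constructs can be set against the construct that differs by one deletion, on 1 array each and so without a replicate check. Deleting the coiled coil from MBD3a went with a higher Pramel14 level by 4.37 log2 without LIF and 3.30 with LIF, a higher Pramel30 level by 4.15 and 3.50, a higher Nlrp4f level by 4.18 and 2.56 and a higher Sohlh2 level by 3.90 and 3.36. Deleting it from the MBD-deleted construct (doubly deleted minus MBD-deleted) gave 3.42 and 3.51 for Pramel14, 3.52 and 3.16 for Pramel30, 3.03 and 2.44 for Nlrp4f and 3.45 and 3.13 for Sohlh2. Deleting the methyl-CpG-binding domain alone (MBD-deleted minus MBD3a) gave differences of -0.04 to 1.23 log2 over these 4 genes and both conditions, with Nlrp4f without LIF at the upper end. For Nlrp4a the coiled-coil deletion gave lower levels in each setting, by -0.83 log2 without LIF and -1.02 with LIF from MBD3a and by -1.26 and -0.98 from MBD-deleted. Without any MBD3 (empty vector minus EBRTcH3) the 4 raised genes were 2.55 to 3.76 log2 higher, and Nlrp4a 0.37 higher without LIF and -0.21 with LIF.

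The sample titles are numbered in 2 runs, of which the first holds the empty vector line with MBD3a, MBD3b, MBD3c and EBRTcH3, and the second the 3 deletion constructs. Of the pairs above, coiled-coil-deleted minus MBD3a and MBD-deleted minus MBD3a therefore cross the runs. Doubly deleted minus MBD-deleted lies within the second run, and empty vector minus EBRTcH3 within the first. Lacking minus retaining lines within the first and the second run were 3.42 and 3.45 log2 for Pramel14 without LIF and 3.29 and 3.42 with LIF. The values were 3.11 and 3.52, then 2.98 and 3.12, for Pramel30, and 3.76 and 3.45, then 3.29 and 3.11, for Sohlh2. Nlrp4f had 3.90 and 2.99 without LIF and 2.35 and 2.40 with LIF. The difference of Nlrp4a was -0.07 and -1.54 without LIF and -0.18 and -1.43 with LIF, so that it rests on the second run, where MBD-deleted is the only retaining line.

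After 12 days without LIF, 4 of 5 genes were lower than with LIF in every retaining line (15.2% of tested genes were) and 4 of 5 in every lacking line (17.3%), but they were not the same 4. Pramel14, Pramel30 and Nlrp4a were lower in all 8 lines. Pramel14 changed by -0.50 ± 0.24 log2 (SD, n = 3) in the lacking lines and by -0.78 ± 0.40 (SD, n = 5) in the retaining lines. Pramel30 changed by -0.69 ± 0.06 in the lacking and -0.86 ± 0.46 in the retaining lines, and Nlrp4a by -0.69 ± 0.21 in the lacking and -0.68 ± 0.42 in the retaining lines. For these 3 genes the responses of the classes overlapped.

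Nlrp4f was the exception in the lacking lines. Its level was higher without LIF by 0.16 log2 in empty vector cells, 0.18 in coiled-coil-deleted cells and 0.19 in doubly deleted cells, whereas it differed by -0.40 in MBD-deleted, -1.44 with MBD3a, -1.31 with MBD3b, -1.92 with MBD3c and -0.88 in EBRTcH3. Without LIF all 3 lacking lines were thus higher and all 5 retaining lines lower, a pattern met in these directions by 1.26% of tested genes. The rises in the lacking lines are small next to the differences in the retaining lines, and the difference of the class responses was 1.37 ± 0.28 log2 (SE). Sohlh2 was lower without LIF by -0.27, -0.26 and -0.30 log2 in the lacking lines, and changed by -0.62, -0.80, 0.01, -0.76 and -1.41 in MBD-deleted, MBD3a, MBD3b, MBD3c and EBRTcH3. MBD3b was thus the only retaining line with no lower Sohlh2 level.

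**Figure D3:**
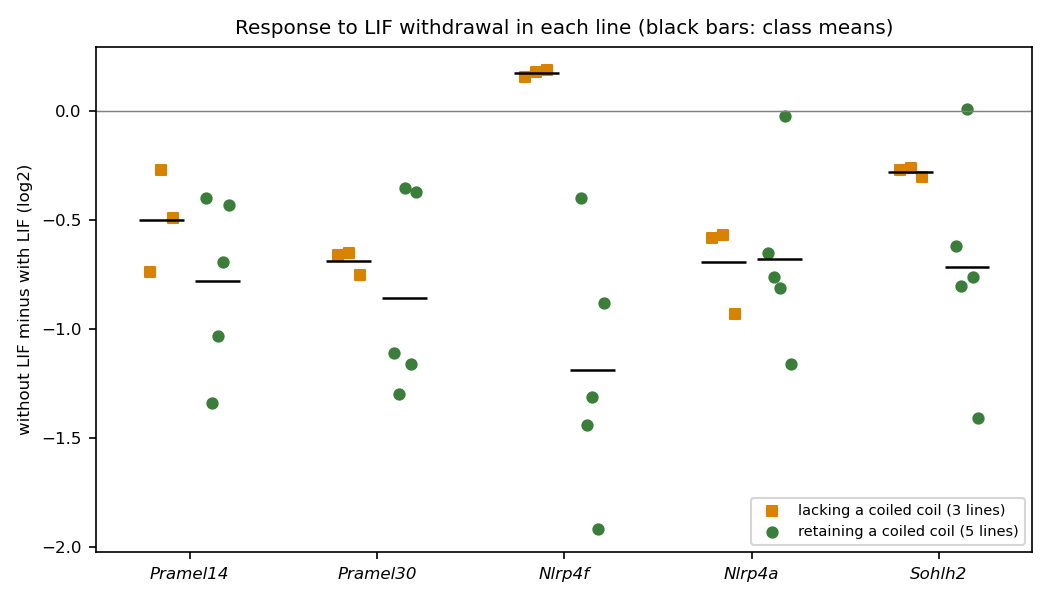
Response to LIF withdrawal (level without LIF minus level with LIF, log2, vertical axis) of the 5 genes in each line; orange squares are the 3 lines lacking a coiled coil, green circles the 5 lines retaining it, and black bars the class means. Nlrp4f alone lies above 0 in all lacking lines (0.16 to 0.19) and below 0 in all retaining lines (-0.40 to -1.92).

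Levels of Pramel14, Pramel30, Nlrp4f and Sohlh2 ran together over the 16 arrays, with Pearson correlations of 0.961 to 0.980 between pairs, while Nlrp4a correlated with them at -0.18 to -0.25. These values describe arrays that share 8 lines and are dominated by the class of line. Among tested genes whose levels span at least 2 log2, the profiles nearest to Pramel14 were those of Dglucy (0.975), Srgn (0.974) and Ccdc152 (0.959), and nearest to Pramel30 those of Srgn (0.977), Dglucy (0.976) and Nostrin (0.961). Gpr83 (0.979), Dglucy (0.966) and Camk1d (0.961) were nearest to Nlrp4f. The genes nearest to Sohlh2 were Dglucy (0.985), Srgn (0.965) and Ccdc152 (0.960). Dglucy encodes a mitochondrial D-glutamate cyclase and Srgn the granule proteoglycan serglycin. Nlrp4a was most like Ccdc160 (0.845), Snord111 (0.795) and Zfp119b (0.775).

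Among the nearest protein-coding genes with a value on each side of these 5 in chromosome order, Ccdc169 passed in both class comparisons. This gene, next to Sohlh2 and joined to it by an annotated read-through transcript in human, was at 4.25, 4.20 and 4.54 log2 in the empty vector, coiled-coil-deleted and doubly deleted lines without LIF, against 3.08 to 3.48 in the retaining lines. With LIF it was at 4.22, 4.63 and 4.53, against 2.98 to 3.60. It was higher by 1.07 ± 0.12 log2 (SE, limma adjusted p = 0.000244) without LIF and by 1.15 ± 0.14 (adjusted p = 0.000541) with LIF, but only through a filter that it passed on 3 arrays, all of lacking lines. Dclk1, a microtubule-associated kinase gene on the other side of Sohlh2, differed by -0.29 log2 without LIF (adjusted p = 0.0834) and by 0.03 with LIF (adjusted p = 0.894).

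Near Pramel14, with 1 protein-coding gene without a value between them, lies Pramel11. It was 0.43 ± 0.12 log2 higher in the lacking lines with LIF (limma adjusted p = 0.0384). Without LIF it did not pass (0.21, adjusted p = 0.356). The call with LIF was lost under 7 of 15 alternatives. Pramel5, beside Pramel30, passed in neither condition (0.24, adjusted p = 0.0952 without LIF; 0.22, adjusted p = 0.231 with LIF). The zinc finger gene Zfp369, beside Nlrp4f, went the other way, -0.32 log2 without LIF (adjusted p = 0.107) and -0.86 ± 0.14 with LIF (adjusted p = 0.00252). Oog3, Pramel31, Olfr466, Nlrp9c and Nlrp9a, the other neighbours with a value, had signals too low to be tested.

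Of the other PRAME-family genes, 33 had a value and 11 of these a signal high enough to be tested. Without LIF 1 was higher in the lacking lines (Pramel7) and 0 lower, with 3 at an unadjusted p under 0.05 by limma, and the median difference was -0.20 log2, against 0.01 over all tested genes. With LIF 3 were higher (Pramel7, Pramel13 and Pramel11) and 0 lower, with 3 at an unadjusted p under 0.05, and the median was 0.09, against 0.05. Over all tested genes 8.55% were called higher and 12.4% lower without LIF, and 7.65% and 6.48% with LIF. Pramel13 was 0.90 ± 0.15 log2 higher in the lacking lines with LIF (adjusted p = 0.00274) and not without LIF (-0.21, adjusted p = 0.225).

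In the retaining lines, LIF withdrawal raised 3 of these 11 PRAME-family genes and lowered 0, with 4 at an unadjusted p under 0.05, beside 21.3% of all tested genes called higher and 14.5% lower. Pramel19 rose by 1.68 ± 0.25 log2 (adjusted p = 0.000374), Pramel13 by 1.43 ± 0.09 (adjusted p = 9.12e-07) and Pramel35, named after its value was seen, by 0.55 ± 0.18 (adjusted p = 0.0343, lost under 4 of 16 alternatives). In the lacking lines 0 of 11 passed, with 1 at an unadjusted p under 0.05; 2.93% of all tested genes did. The response to withdrawal differed between the classes for 12.1% of all tested genes. That of Pramel13 differed between the classes (-1.11 ± 0.15 log2, lacking minus retaining, adjusted p = 0.00109), and that of Pramel19 did not pass (-0.96, adjusted p = 0.164) unless EBRTcH3 was left out (-1.33). In the retaining lines these 3 genes were higher without LIF, where Pramel14 and Pramel30 were lower.

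Of the reproductive Nlrp genes other than Nlrp4f and Nlrp4a, 11 had a value and 4 were tested. Without LIF 2 were higher in the lacking lines (Nlrp4g and Nlrp5) and 1 lower (Nlrp9b), and with LIF 2 were higher (Nlrp4g and Nlrp14) and 1 lower (Nlrp5). Among all tested genes 8.55% were called higher and 12.4% lower without LIF, and 7.65% and 6.48% with LIF. Nlrp4g, a further Nlrp4 gene, was at 5.19, 5.49 and 5.33 log2 in the empty vector, coiled-coil-deleted and doubly deleted lines without LIF, against 4.43, 3.42, 3.40, 3.90 and 3.84 in MBD-deleted, MBD3a, MBD3b, MBD3c and EBRTcH3. With LIF it was at 5.42, 4.56 and 5.43, against 3.81, 3.61, 3.78, 4.19 and 3.87. The classes did not overlap in either condition, and the difference was 1.54 ± 0.21 log2 without LIF (adjusted p = 0.000763) and 1.28 ± 0.20 with LIF (adjusted p = 0.0018). It passed the filter on 7 arrays, 6 of lacking lines and the MBD-deleted array without LIF. The filter itself thus favoured the Nlrp4g calls in this direction.

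Nlrp9b rose on LIF withdrawal by 1.13 ± 0.17 log2 in the lacking lines (adjusted p = 0.00659) and by 1.97 ± 0.13 in the retaining lines (adjusted p = 1.09e-06), and was lower in the lacking lines without LIF (-1.19 ± 0.17, adjusted p = 0.000971). Its other class test, with LIF, did not pass (-0.35, adjusted p = 0.423). Nlrp14 and Nlrp5, named after their values were seen, complete the tested genes. Nlrp14 was 0.95 ± 0.21 log2 higher in the lacking lines with LIF (adjusted p = 0.0133), a call lost without coiled-coil-deleted (0.72) or without doubly deleted (0.93). Nlrp5, which encodes the maternal-effect protein MATER, differed by 0.35 log2 without LIF (adjusted p = 0.0352) and by -0.36 with LIF (adjusted p = 0.0464), calls that were lost under 8 and 9 of 15 alternatives. On LIF withdrawal Nlrp5 changed by -0.80 ± 0.08 log2 in the retaining lines (adjusted p = 1.71e-05) and by -0.09 in the lacking lines (adjusted p = 0.773). Its responses differed by 0.71 ± 0.13 log2, lacking minus retaining (adjusted p = 0.00492). The calls in the retaining lines and for this difference were kept under all 16 alternatives. The responses of Nlrp14 differed by -0.55 ± 0.14 log2 (adjusted p = 0.0303), a call lost under 8 of 16. Among 3 tested genes of the family outside the reproductive branch (Nlrp3, Nlrp6 and Nlrx1), Nlrp3, which forms an inflammasome, was higher in the lacking lines without LIF (0.48 ± 0.07, adjusted p = 0.00133). So were 8.55% of all tested genes.

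**Figure D4:**
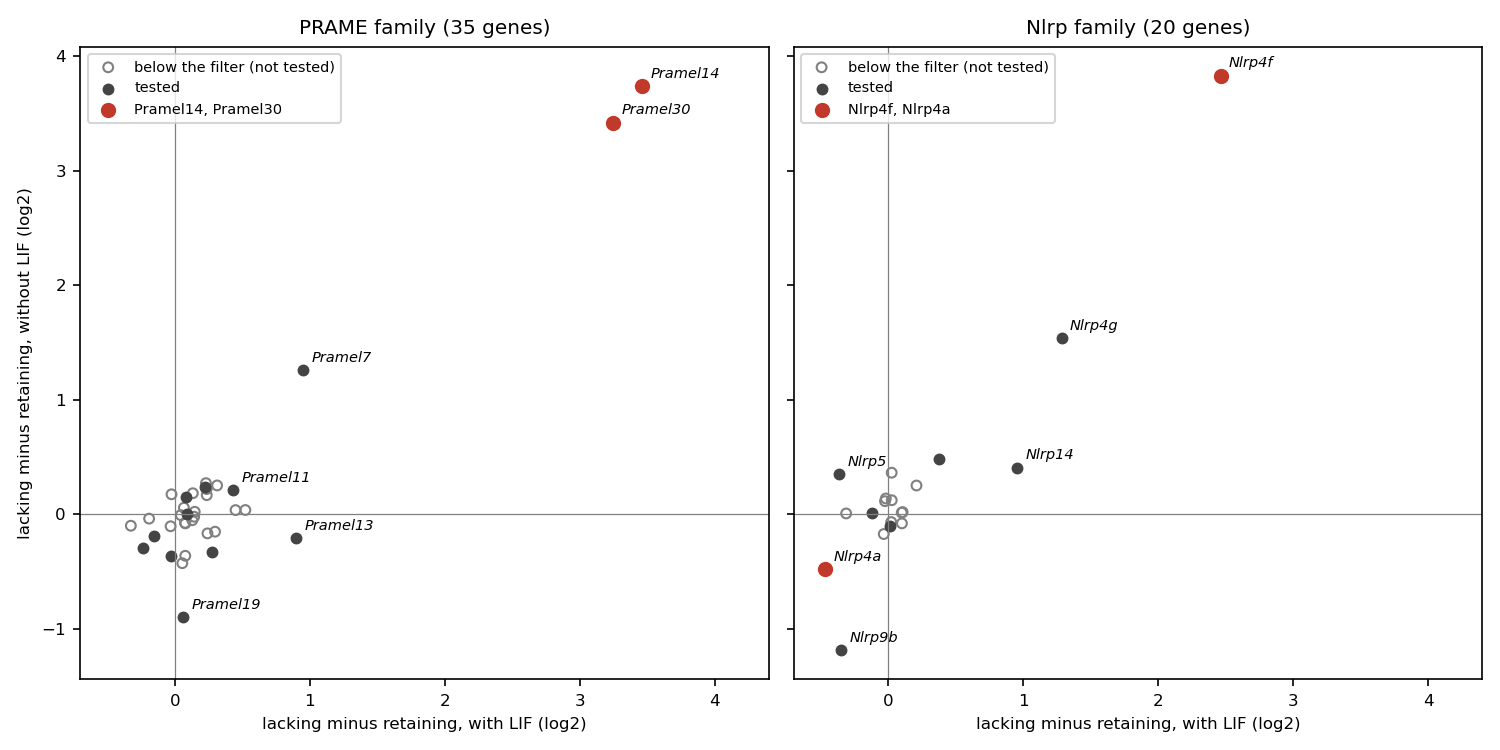
Difference in level between lacking and retaining lines with LIF (log2, horizontal axis) and without LIF (log2, vertical axis) for 35 PRAME-family genes (left) and 20 Nlrp-family genes (right); filled points were tested, open points were below the filter on signal, and red points are Pramel14, Pramel30, Nlrp4f and Nlrp4a. Pramel14, Pramel30 and Nlrp4f lie at 2.46 to 3.83 log2 on both axes, Nlrp4g and Pramel7 at 0.95 to 1.54, and Nlrp4a at -0.47 and -0.48.

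None of the other oocyte transcription factors passed. Of 6 with a value 5 were tested (Sohlh1, Figla, Nobox, Lhx8 and Taf4b), and 0 passed in any of the 5 comparisons. By limma 2 had an unadjusted p under 0.05 between the classes without LIF, and 0 in the other comparisons. Of all tested genes 8.55% were called higher and 12.4% lower between the classes without LIF, and 7.65% and 6.48% with LIF. For LIF withdrawal the shares were 21.3% higher and 14.5% lower in the retaining lines, 2.93% in the lacking lines and 12.1% for the response difference. So few genes allow no statement on such factors as a group. Sohlh1, the partner of SOHLH2, differed by 0.09 ± 0.13 log2 without LIF (adjusted p = 0.674) and by 0.02 ± 0.12 with LIF (adjusted p = 0.921). Figla, which controls zona pellucida genes, differed by -0.09 ± 0.18 (adjusted p = 0.783) and 0.14 ± 0.20 (adjusted p = 0.692).

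Of 23 oocyte coat, growth factor and maternal-effect genes with a value, 16 were tested. Without LIF 4 were higher in the lacking lines and 1 lower, with a median of 0.15 log2, and with LIF 2 were higher and 0 lower (6 at an unadjusted p under 0.05), with a median of 0.12. Over all tested genes 8.55% were called higher and 12.4% lower without LIF, and 7.65% and 6.48% with LIF. The medians over all tested genes were 0.01 log2 without LIF and 0.05 with LIF. Khdc3, a member of the subcortical maternal complex, was higher by 1.54 ± 0.43 log2 without LIF (adjusted p = 0.029) and by 1.46 ± 0.27 with LIF (adjusted p = 0.00552). Without LIF the lacking lines were at 7.08, 7.21 and 7.22, with MBD-deleted beside them at 7.23 and the other retaining lines at 4.99 to 5.34, and the call was lost under 7 of 15 alternatives. Dppa3, a maternal factor that protects the maternal genome from demethylation in the zygote, was lower in the lacking lines without LIF (-2.08 ± 0.15, adjusted p = 1.66e-05), where the retaining lines rose by 1.57 ± 0.20 on LIF withdrawal (adjusted p = 0.00013). The other calls, named after their values were seen, were Oas1d (0.99), Ooep (0.83) and Padi6 (0.32, lost under 6 of 15 alternatives) without LIF and Bmp15 (0.42, lost under 7 of 15) with LIF.

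The 8 defining oocyte markers (Zp1, Zp2, Zp3, Gdf9, Bmp15, Figla, Nobox and Oosp1) differed in signal. Zp3, Gdf9, Bmp15 and Figla were above the array's 40th percentile on all 16 arrays, whereas Zp2 and Oosp1 were too low to be tested. Zp3, a zona pellucida gene, was at 6.08 to 6.11 log2 in the lacking and 5.59 to 6.34 in the retaining lines without LIF, and at 5.53 to 5.82 and 5.29 to 6.72 with LIF. The classes overlapped for all 8 markers without LIF and for 7 with LIF, where Bmp15 was at 4.99 to 5.48 in the lacking and 4.73 to 4.88 in the retaining lines. The mean over the 8 was 4.44 to 4.62 in the lacking and 4.34 to 4.48 in the retaining lines without LIF, and 4.32 to 4.60 and 4.24 to 4.61 with LIF.

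The 4 germ cell markers (Ddx4, Dazl, Sycp3 and Mael) had overlapping means, 7.08 to 7.17 in the lacking and 6.68 to 7.59 in the retaining lines without LIF, and 6.76 to 7.23 and 6.71 to 7.50 with LIF, but single markers separated the classes in opposite directions. Dazl, an RNA-binding protein gene of germ cells, was at 6.55 to 6.69 in the lacking and 5.33 to 5.81 in the retaining lines without LIF, and at 6.22 to 6.90 and 5.09 to 5.85 with LIF. Sycp3, of the synaptonemal complex, was at 6.90 to 7.80 in the lacking and 8.99 to 9.77 in the retaining lines with LIF, and Mael at 6.45 to 7.54 and 5.21 to 6.44. The ranges of Mael nearly touched, and its class difference with LIF did not pass (0.92 ± 0.30 log2, limma adjusted p = 0.0674). Every lacking line was above every retaining line for 11.9% of all tested genes without LIF and for 11.8% with LIF.

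Germline and meiosis genes changed in both directions. Of 23 tested without LIF, 5 were higher (Hormad1, Dazl, Tex11, Rpl10l and Piwil2) and 4 lower (Tdrkh, Tdrd1, Brdt and Zcwpw1) in the lacking lines, beside 8.55% and 12.4% of all tested genes. The calls of Piwil2, Zcwpw1, Tex11 and Tdrd1 were lost under 9, 7, 6 and 3 of 15 alternatives. With LIF 3 were higher (Tex13b, Dazl and Rpl10l) and 3 lower (Sycp3, Meioc and Zcwpw1), beside 7.65% and 6.48%, and the calls of Zcwpw1 and Rpl10l were lost under 6 and 3 of 15. All but Hormad1, Tex13b and Sycp3 are named after their values were seen. Sycp3 differed by -2.26 ± 0.22 log2 with LIF (adjusted p = 0.000127), Tex13b by 1.49 ± 0.20 with LIF (adjusted p = 0.000708) and Hormad1, which acts on meiotic chromosome axes, by 1.22 ± 0.17 without LIF (adjusted p = 0.000908).

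Of 13 tested genes of the 2-cell-like state, a rare ESC state, 8 rose on LIF withdrawal in the retaining lines, beside 21.3% of all tested genes. In the lacking lines 0 passed, with 1 at an unadjusted p under 0.05, beside 2.93% of all tested genes. Zscan4f, Zscan4d, Zscan4b and Zscan4c changed by 1.69, 1.63, 1.51 and 1.31 log2 in the retaining lines. In the lacking lines their mean changes were 1.30, 0.45, 1.11 and 0.87 log2, but the lines moved in opposite directions. Single lines ranged from -1.22 to 3.43 log2 for Zscan4f and from -1.04 to 1.63 for Zscan4d. The ranges were -0.98 to 2.97 for Zscan4b and -0.96 to 2.42 for Zscan4c. For each of these genes coiled-coil-deleted cells fell, and empty vector and doubly deleted cells rose. The retaining-line calls of Zscan4f, Zscan4b and Zscan4c were lost under 4, 4 and 7 of 16 alternatives. The difference of the responses passed for 3 of the 13 (Tdpoz3, Usp17lc and Usp17ld), beside 12.1% of all tested genes. It did not pass for Zscan4f, Zscan4d, Zscan4b and Zscan4c (adjusted p = 0.827, 0.242, 0.79 and 0.77). In the class comparison without LIF 5 were lower in the lacking lines (Zscan4d, Tdpoz3, Usp17la, Usp17lc and Usp17ld), beside 12.4% of all tested genes. With LIF 0 passed, with 0 at an unadjusted p under 0.05, beside 7.65% of all tested genes called higher and 6.48% lower. Tdpoz3, Usp17la and Usp17ld passed the filter on 4, 3 and 4 arrays, all of retaining lines without LIF, so the filter favoured their calls. The class calls of Zscan4d and Usp17la were lost under 8 and 7 of 15 alternatives.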

How the data were processed

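Total RNA of 16 samples was labelled with a whole-transcript kit and hybridized, per the labels' protocols. The authors deposited log2 signals; the submitters' processing notes name RMA and affy, with versions and probe set definitions not given in the sources used here. Of 65770 probe sets, 30439 had 1 gene symbol. Symbols were updated by Entrez identifier (RefSeq, GRCm38.p6; 827 changed), and the probe set with the highest mean was kept per gene (30102 genes). Genes above the array's 40th percentile on at least 3 arrays were tested (22872), with limma 3.58.1 in R 4.3.3 and Benjamini-Hochberg adjustment at 0.05. Line was a fixed block in the fits of LIF withdrawal, because the labels pair both arrays of a line; class comparisons used 8 arrays each. Promoters were aligned with Biopython 1.88 (match 1, mismatch -1). The 5 genes, the lists and the comparisons were chosen with earlier results of these data known. Named besides the 5 genes and Mbd3 were, per list, up to 4 called genes each way that changed by at least 1 log2. Also named were the 3 most correlated genes per gene, within the screened set given above, and the nearest protein-coding neighbours with a value. Others are marked. The number of arrays limits the precision. The fits were tested on simulated data. Alternatives were quantile normalization, centred array medians, no filter, the mean of a gene's probe sets and array weights. Further alternatives were the title run as a covariate, limma's eBayes with its trend and robust options, no block, and leaving out each line.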

Additional observations from a re-analysis of the deposited data

Results flagged for a closer look

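Among the 5 retaining lines, MBD-deleted without LIF stood apart in Nlrp4f, at 5.77 log2 with the others at 4.54 to 4.80, and in Khdc3, at 7.23 with the others at 4.99 to 5.34; both sat on the side of the lacking lines. EBRTcH3 without LIF stood apart below the other retaining lines in Pramel19 (4.53, others 6.09 to 6.46), Zscan4f (5.76), Zscan4d (4.74), Zscan4b (5.51), Zscan4c (5.20) and Tdpoz3 (4.15). Its response to LIF withdrawal was also the lowest by a wide gap, at 0.02 for Zscan4f, 0.00 for Zscan4d, 0.02 for Zscan4b, -0.72 for Zscan4c and 0.36 for Tdpoz3. Such gaps (Dixon's ratio at 95%) arise by chance in about 1 in 20 groups, and the Zscan4 genes are near-identical copies whose signals are not independent.

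Nlrp4f moved up in all 3 lacking lines and down in all 5 retaining lines on LIF withdrawal (difference 1.37 log2); since Nlrp4f was chosen with these data known, that difference was not tested. The response to LIF withdrawal differed between lacking and retaining lines in limma's interaction test for Hormad1 (1.73), Sycp3 (1.67), Tex13b (-1.30), Dppa3 (-1.28), Mael (-1.13), Pramel13 (-1.11), Tdpoz3 (-1.08), Usp17ld (-1.01) and Nlrp9b (-0.84). The call was lost under 8 of 16 alternatives for Mael, 7 for Nlrp9b, 5 for Dppa3, 3 for Sycp3 and 2 each for Hormad1 and Tdpoz3. Tdpoz3 and Usp17ld passed the filter on low signal through 4 arrays each, all of retaining lines without LIF, so the filter favoured their calls.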

How the results depend on the processing

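The number of lines limits these results, and probe sets near the 40th percentile say little on change. All 390 values of the 5 genes under the alternatives moved by less than 1 SD between lines, and the class differences of Pramel14, Pramel30, Nlrp4f and Sohlh2 stayed between 2.37 and 4.06 log2. Of 84 named calls, 54 were kept under every alternative and 30 were lost under at least 1; of 156 named values without a call, 42 were called under at least 1, and no call turned its direction under the alternatives. Over all genes, array weights gave 1612 calls for LIF withdrawal in lacking lines (670 in the design used), 5414 for the response difference (2759) and 5373 for the classes with LIF (3233). Leaving out 1 line gave 114 (without the empty vector line) to 1039 (without MBD-deleted) calls for LIF withdrawal in lacking lines, 6661 to 8390 in retaining lines (8181), 1353 (without coiled-coil-deleted) to 3914 for the response difference, with 1369 without doubly deleted, 1779 (without coiled-coil-deleted) to 3866 for the classes with LIF, and 3014 (without doubly deleted) to 5433 for the classes without LIF (4791). Centring array medians moved the share of higher calls to 70.2% in retaining lines on LIF withdrawal, against 59.5% uncentred, to 23.6% for the response difference, against 34.5%, and to 28.7% for the classes without LIF, against 40.8%. Without the replicate block by line, the counts were 693, 8259 and 2913 for the 3 fits of LIF withdrawal, and among named calls those of Nlrp9b, Mael, Nlrp14 and Usp17lc for the response difference and of Tdrkh in retaining lines were lost. The causes were not tested.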
